A study of Mus musculus with 17 samples.

Results

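Igfbp6, Upp1 and Lipg are 3 of the 10207 named genes in the count table, chosen by these same counts, which were far higher in marrow cells of mice with a mammary tumor than in marrow cells of healthy mice. RNA was counted in 3 kinds of sorted myeloid cells. Tumor-associated macrophages (TAM, 3 libraries) were CD11b+ Gr1- F4/80+ cells of primary tumors. BMDM_T (4 libraries) were CD11b+ Gr1+ F4/80low cells flushed from the leg bones of tumor-bearing mice, and BMDM_H (4 libraries) were cells of the same marrow gate from healthy mice. All mice were BALB/c, and no engineered allele is named. For TAM and BMDM_T, females of 8 weeks had received 100000 4T1-luc cells, a luciferase-carrying line of the 4T1 mouse mammary carcinoma, in a mammary fat pad. Tumors had grown to 1 cm when the cells were taken, and the label age of both groups is 8 weeks, the age at injection. BMDM_H mice were untreated with a label age of 12 weeks, so tumor and label age cannot be told apart in BMDM_T against BMDM_H. TAM differ from both marrow groups in tissue and gate and also in collagenase digestion, which marrow did not undergo, and these cannot be told apart either. Whether each replicate is a mouse of its own is not stated, and a p-value here covers the differences among the libraries of a group, which may be technical.

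The genes have unrelated products. IGFBP6 is a secreted protein that binds insulin-like growth factors with a preference for IGF-II and limits its action. UPP1 is a uridine phosphorylase, which splits uridine into uracil and ribose-1-phosphate, so that the ribose can feed central carbon metabolism. LIPG is endothelial lipase, a secreted phospholipase that acts mainly on high-density lipoprotein and takes its name from the endothelial cells in which it was first described.

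Because these genes were high in the same libraries, their RefSeq promoter windows (GRCm38.p6, the assembly of mm10, 250 bases before to 50 after the start, printed 5′ to 3′ on the plus strand) are shown for Igfbp6 (chr15:102143936-102144235, start 102144186) and for the Upp1 start that coincides with the annotated gene start (chr11:9117853-9118152). The Igfbp6 window ends before the annotated gene start at 102144362, so its distances are from the RefSeq start alone. Lipg is named only. Capitals mark matches to 5 short motifs searched on both strands.
Igfbp6: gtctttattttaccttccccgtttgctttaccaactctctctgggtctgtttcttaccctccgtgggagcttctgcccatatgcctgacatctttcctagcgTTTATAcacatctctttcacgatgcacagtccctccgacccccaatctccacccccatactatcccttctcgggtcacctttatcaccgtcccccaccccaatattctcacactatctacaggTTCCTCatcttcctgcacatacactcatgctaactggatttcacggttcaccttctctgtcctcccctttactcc
Upp1: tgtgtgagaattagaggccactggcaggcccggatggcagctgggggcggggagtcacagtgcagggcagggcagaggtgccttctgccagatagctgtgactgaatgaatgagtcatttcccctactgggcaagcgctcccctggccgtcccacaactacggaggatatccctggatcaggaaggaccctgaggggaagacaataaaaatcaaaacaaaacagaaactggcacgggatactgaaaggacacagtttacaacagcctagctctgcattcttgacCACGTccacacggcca
The letters TTCNNNGAA are the motif of STAT factors and occurred in 8.3% of 32851 promoter windows. TTGCNNAA, for C/EBP factors, occurred in 10.8% of them. The core of hypoxia response elements, ACGTG, was found in 19.6%. The core of the sites of PU.1, a myeloid transcription factor, is GAGGAA and was found in 28.3% of the windows. The TATA box was searched as TATAAA and occurred in 13.6% of all of these windows. In the Igfbp6 window the capitals are the TATA box letters on the minus strand, 148 bases before the start, and the PU.1 core on the minus strand, 25 bases before it. In the Upp1 window they are the hypoxia core on the minus strand, with its first base at position 35, counting the start as 1. Neither window held the STAT or the C/EBP letters, and no motif was found in both. The other RefSeq windows of Upp1, which are not shown, held none of the motifs. The GC content was 49.7% for Igfbp6 and 55.0% for Upp1, against a median of 52.7% over all windows. A match here describes letters and is not evidence of a binding site.

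Total counts were 1748338 to 3747929 in TAM, 931278 to 1218977 in BMDM_T and 387940 to 1286844 in BMDM_H. Another 6 libraries, of a second batch (BMDM_H replicates 5 to 8 and 2 of mammary gland macrophages), could not be read by gene: over the named rows their Spearman correlations with the 11 libraries used here were -0.0178 to 0.0023, against 0.9215 to 0.9584 among the 4 BMDM_H libraries. The marrow cells are labelled as monocytes, but neutrophil genes dominated them. A list of 10 neutrophil and neutrophil precursor genes summed to 162100 to 195900 CPM, which is counts scaled to a common library total, in BMDM_T and 135800 to 207100 CPM in BMDM_H, against 1272 to 1862 and 1923 to 3492 CPM for 6 monocyte genes. In TAM the neutrophil list summed to 329 to 557 CPM and 8 macrophage genes to 58280 to 72050 CPM. These are bulk libraries, in which fewer cells of a type and less RNA per cell cannot be told apart.

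Igfbp6 was the gene with the clearest order over the 3 groups. It had 16.1, 12.2 and 6.98 CPM in TAM replicates 1 to 3, 173, 125, 147 and 142 CPM in BMDM_T replicates 1 to 4, and 4.78, 0.804, 1.86 and 5.21 CPM in BMDM_H replicates 1 to 4. The 3 groups did not overlap: BMDM_T stood highest, TAM came next and BMDM_H was lowest. In counts this was 29, 23 and 27 in TAM, 161, 149, 127 and 157 in BMDM_T, and 6, 1, 1 and 2 in BMDM_H. The BMDM_H level thus rests on 10 counts in all. Means were 11.8 ± 4.58 CPM in TAM (SD, n = 3), 147 ± 20.0 CPM in BMDM_T (SD, n = 4) and 3.16 ± 2.16 CPM in BMDM_H (SD, n = 4). The lowest BMDM_T library was 24.1 times the highest BMDM_H library, while the lowest TAM library was 1.34 times the highest BMDM_H library.

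Upp1 was high in BMDM_T alone. It had 10.0, 7.43 and 14.0 CPM in TAM, 231.5, 163, 125 and 132 CPM in BMDM_T, and 18.3, 12.1, 13.0 and 15.6 CPM in BMDM_H. TAM and BMDM_H overlapped, and each BMDM_T library lay above every library of the other groups. It was the best counted of the 3 genes outside BMDM_T, with 18, 14 and 54 counts in TAM and 23, 15, 7 and 6 in BMDM_H, next to 215, 194, 108 and 146 in BMDM_T. Means were 10.5 ± 3.29 CPM in TAM (SD, n = 3), 163 ± 48.8 CPM in BMDM_T (SD, n = 4) and 14.8 ± 2.81 CPM in BMDM_H (SD, n = 4). The lowest BMDM_T library was 6.81 times the highest BMDM_H library.

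Lipg was close to the limit of detection outside BMDM_T. It had 1.67, 1.06 and 0.259 CPM in TAM, 81.8, 27.7, 58.9 and 66.8 CPM in BMDM_T, and 0.796, 3.22, 5.58 and 2.60 CPM in BMDM_H. The values of TAM and BMDM_H overlapped, and BMDM_T lay above both. The counts were 3, 2 and 1 in TAM, 76, 33, 51 and 74 in BMDM_T, and 1, 4, 3 and 1 in BMDM_H, so a single count is a large part of any TAM or BMDM_H value. Means were 0.995 ± 0.706 CPM in TAM (SD, n = 3), 58.8 ± 22.8 CPM in BMDM_T (SD, n = 4) and 3.05 ± 1.98 CPM in BMDM_H (SD, n = 4).

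**Figure D1:**
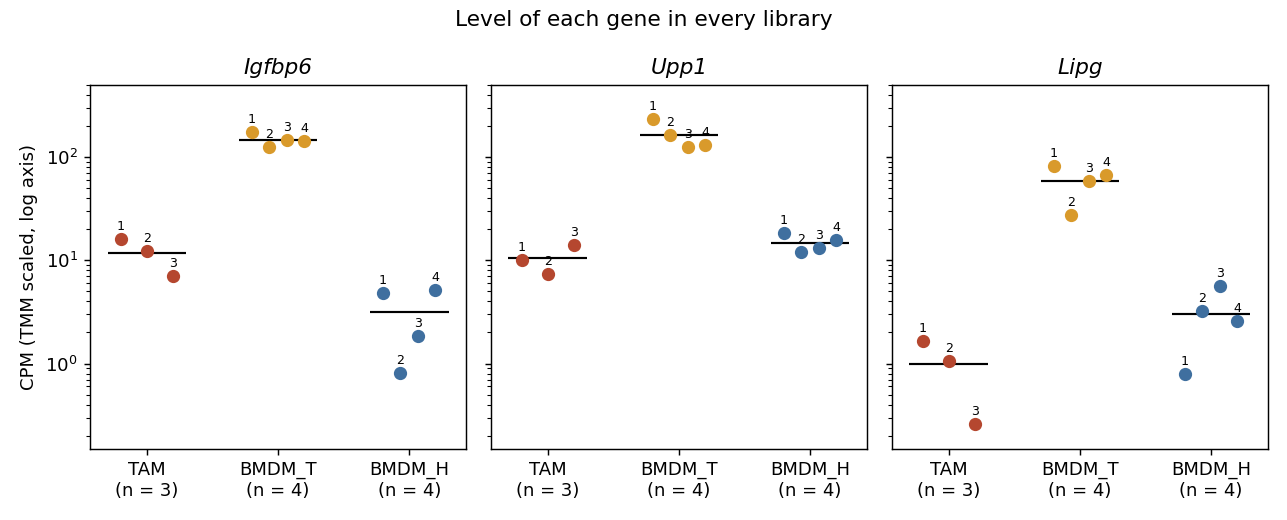
CPM of Igfbp6, Upp1 and Lipg (log axis) in each library of TAM, BMDM_T and BMDM_H, with replicate numbers beside the points and a line at each group mean. All 4 BMDM_T libraries lie above every other library in each panel, with means of 147, 163 and 58.8 CPM in the order of the panels.

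The genes differed in how evenly they were raised over the 4 BMDM_T libraries. The coefficient of variation in BMDM_T was 13.6% for Igfbp6, 30.0% for Upp1 and 38.8% for Lipg, where counting alone would give 8.27%, 7.83% and 13.2%. Replicate 1 was the highest BMDM_T library for all 3 genes. Replicate 2 was the lowest for Igfbp6 and Lipg but the next highest for Upp1. In BMDM_H the coefficients were 68.4%, 19.0% and 64.8% for Igfbp6, Upp1 and Lipg, against 72.0%, 31.9% and 75.9% from counting alone, so variation between the BMDM_H libraries was not detectable beyond counting error at this depth. In TAM they were 38.9%, 31.5% and 71.0%, against 20.7%, 19.8% and 75.1% from counting alone.

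BMDM_T against BMDM_H, the comparison of marrow cells with and without a tumor in the mouse, is the one on which the genes were picked, and its values are given as a description without a test. The fitted log2 fold changes were 5.60 ± 0.36 for Igfbp6 (48.5-fold), 3.44 ± 0.26 for Upp1 (10.9-fold) and 4.41 ± 0.48 for Lipg (21.2-fold, all ± SE). All 3 genes passed the filter on low counts, Igfbp6 and Lipg through BMDM_T alone. From the top of 7518 tested genes they ranked 2, 11 and 4 in that order. Ratios of the counts summed per group restate the same counts and are no second measurement. They were 49.7 for Igfbp6 (95% exact counting interval 26.8 to 104), 10.9 for Upp1 (8.17 to 14.7) and 21.7 for Lipg (11.3 to 48.1). These intervals are wide and cover counting error only, not the differences between libraries or the choice of the genes, and they are no test. Across all tested genes 2.82% were called higher in BMDM_T at an adjusted p under 0.05, and 5.99% had all BMDM_T libraries above all BMDM_H libraries. With library totals as the only scaling, the calls were 155 higher and 218 lower, in place of 212 higher and 150 lower, as the median over all genes shifted by -0.11 on the log2 scale for BMDM_T against BMDM_H and by 0.15 for TAM against BMDM_T. In place of 362 calls there were 238 when BMDM_H replicate 2 was left out, 95 of them lower, and 179 when BMDM_H replicates 3 and 4 were. Lower calls numbered 96 without BMDM_T replicate 1 and also 96 without BMDM_H replicate 1. The fold change of Igfbp6 was 74.8 without BMDM_H replicate 1, which held 6 of the 10 BMDM_H counts.

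TAM against BMDM_T compares macrophages of the tumor with marrow cells of mice that carry the same tumor line, and the level of each gene was lower in TAM. The BMDM_T libraries on which the genes were picked are part of this comparison, and the choice favors a lower value in TAM, so the values are a description here as well, without a test. Igfbp6 was 13.1-fold lower in TAM (log2 fold change -3.71 ± 0.27 SE) and Upp1 14.8-fold lower (-3.88 ± 0.26 SE). Lipg was 64.6-fold lower (-6.01 ± 0.52 SE), and its summed counts of 6 in TAM and 234 in BMDM_T gave a ratio of 72.0 with a counting interval of 32.6 to 198. Without TAM replicate 3, which had 1 Lipg count, the log2 fold change of Lipg was -5.33. Every TAM library was below every BMDM_T library for each gene. Across all tested genes 28.7% were called lower in TAM by edgeR, and 27.7% had no overlap in that direction.

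In TAM against BMDM_H, macrophages of the tumor are set beside healthy marrow cells. The mice of these groups differ in tumor and label age, and the cells in tissue, gate and digestion, which cannot be told apart. The low BMDM_H libraries took part in the choice of the genes, and Igfbp6 and Lipg have enough counts to be fitted only through BMDM_T, so no test is given for this comparison either. Igfbp6 was 3.70-fold higher in TAM (log2 fold change 1.89 ± 0.48 SE), and 5.64-fold higher without BMDM_H replicate 1. All 3 TAM libraries were above all 4 BMDM_H libraries, and the summed counts of 79 in TAM and 10 in BMDM_H gave a ratio of 3.58 (1.85 to 7.75). Of all genes 28.0% were called higher in TAM than in BMDM_H, and 27.5% had no overlap in that direction. Upp1 had a log2 fold change of -0.44 ± 0.33 SE, with a summed-count ratio of 0.764 and a counting interval of 0.534 to 1.10. Lipg had -1.61 ± 0.91 SE, and its 6 TAM counts and 9 BMDM_H counts gave a ratio of 0.302 (0.0885 to 0.95). The counting intervals leave out the differences between libraries and are no test. From high to low, the means of Igfbp6 ran BMDM_T, TAM, BMDM_H with no overlap of libraries, while for Upp1 and Lipg the TAM and BMDM_H libraries overlapped below BMDM_T. Whether the 3 genes differ from each other in these fold changes was not tested.

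**Figure D2:**
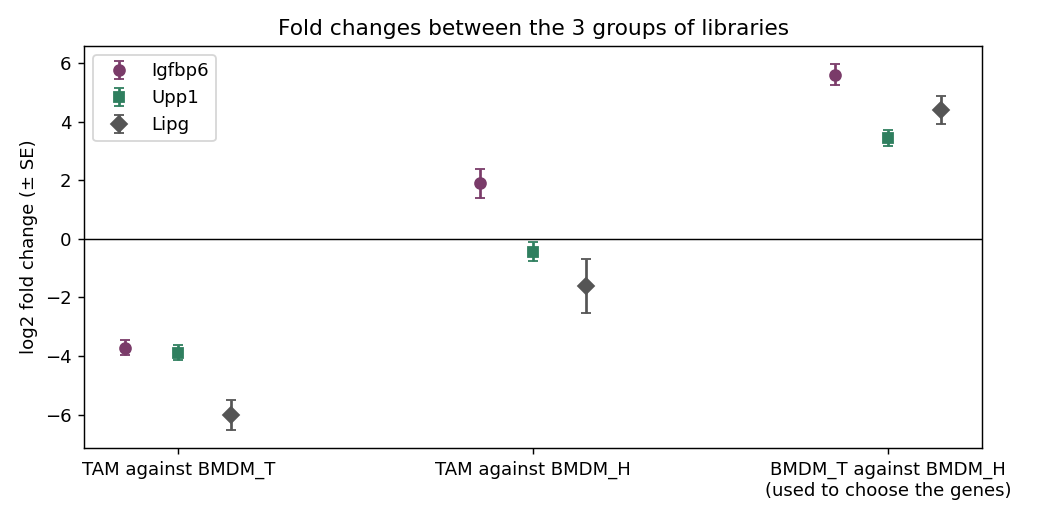
Log2 fold change ± SE of Igfbp6, Upp1 and Lipg in the 3 comparisons, which share libraries with each other. In TAM against BMDM_T the values are -3.71, -3.88 and -6.01, in TAM against BMDM_H 1.89, -0.44 and -1.61, and in BMDM_T against BMDM_H, on which the genes were chosen, 5.60, 3.44 and 4.41.

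Few other genes of the pathway around Igfbp6 could be compared. A list of 27 further genes of the insulin-like growth factor axis (ligands, receptors, binding proteins and the proteases and adaptors around them) had 12 in the table and 7 with enough counts to test. Between BMDM_T and BMDM_H 0 of the 7 passed with edgeR (0 at an unadjusted p under 0.05 and 0 with DESeq2), against 4.82% of all genes called, so a count of 0 among so few genes is near the background. Their median log2 fold change was -0.07, next to -0.01 over all genes. Of the other binding proteins, Igfbp4 had 139 ± 15.4 CPM in BMDM_T, against 133.5 ± 28.9 CPM in BMDM_H (SD, n = 4 each), a log2 fold change of 0.05 ± 0.18 (edgeR adjusted p = 0.935). Igfbp7 had 6.57 ± 4.08 CPM in BMDM_T, against 11.1 ± 6.76 CPM in BMDM_H (SD, n = 4 each; -0.51 ± 0.60 SE, edgeR adjusted p = 0.733). Igfbp3 had 27 counts over TAM, 6 over BMDM_T and 8 over BMDM_H, too few to test. Of the receptors, Igf2r, which binds and clears IGF-II, stood at 61.2 ± 6.51 CPM in BMDM_T, against 62.9 ± 10.4 CPM in BMDM_H (SD, n = 4 each; log2 fold change -0.01 ± 0.21, edgeR adjusted p = 0.996). The ligands Igf1 and Igf2 were not analysed here.

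In TAM against BMDM_T, 4 of these 7 genes rose and 2 fell (85.7% called, against 58.9% of all genes, with 30.1% of all genes higher). Htra3, a secreted serine protease with a domain like that of the binding proteins, had 234.5 ± 40.8 CPM in TAM (SD, n = 3) and 2.14 ± 0.96 CPM in BMDM_T (SD, n = 4), and its 1715 and 9 counts gave a ratio of 103 (54.3 to 226). Irs2, an adaptor of insulin and IGF receptors, rose by 2.14 on the log2 scale (edgeR adjusted p = 1.4e-08), and Igfbp4 by 0.60 (edgeR adjusted p = 0.00762). The receptors went the other way. Igf2r fell by 3.34 (edgeR adjusted p = 1.67e-09) and Igf1r by 2.95 (edgeR adjusted p = 3.47e-06), to 6.46 ± 2.50 and 2.48 ± 0.763 CPM in TAM (SD, n = 3). Against BMDM_H, where 56.3% of all genes were called, 4 of the 7 were again higher in TAM and 2 lower.

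Upp1 belongs to the pathway that salvages and breaks down pyrimidine nucleosides. Of 39 further genes of uptake, salvage, breakdown and synthesis 27 were in the table and 22 were tested. Between BMDM_T and BMDM_H 2 rose and 0 fell (9.09%, against 4.82% of all genes), with a median log2 fold change of 0.07. Slc28a2, a concentrative nucleoside transporter that imports uridine and purine nucleosides, had 76.5, 40.3, 40.4 and 55.0 CPM in BMDM_T and 16.7, 10.5, 5.58 and 20.8 CPM in BMDM_H, with no overlap. It rose by 2.00 ± 0.31 on the log2 scale (edgeR adjusted p = 0.000459, and 3.02e-06 to 0.00532 over the alternatives). Nt5c3, a nucleotidase that removes the phosphate of pyrimidine nucleotides such as UMP and so yields uridine, had 153, 111, 56.6 and 60.4 CPM in BMDM_T and 57.3, 29.0, 27.9 and 20.8 CPM in BMDM_H. The lowest BMDM_T library was just under the highest BMDM_H library, and the rise was 1.39 ± 0.32 (edgeR adjusted p = 0.0115). That call was lost without BMDM_H replicate 2 (adjusted p = 0.0583) and without BMDM_H replicates 3 and 4 together (0.129), both by edgeR. The other uridine phosphorylase, Upp2, was not analysed here.

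In TAM against BMDM_T both of these genes fell, Slc28a2 by 3.25 on the log2 scale (edgeR adjusted p = 4.45e-08) and Nt5c3 by 2.08 (edgeR adjusted p = 1.74e-05). Slc28a2 had 6.67, 4.77 and 5.17 CPM in TAM. Over the whole list 9 of 22 rose and 7 fell in TAM (72.7% called, against 58.9% of all genes). Slc29a3, a nucleoside transporter of lysosomes and other inner membranes, rose by 2.87 (edgeR adjusted p = 2.06e-09). Uck2, the uridine-cytidine kinase that starts salvage of uridine, had 68.8 ± 16.4 CPM in TAM (SD, n = 3) and 17.6 ± 8.77 CPM in BMDM_T (SD, n = 4), a rise of 1.93 (edgeR adjusted p = 1.39e-05). Against BMDM_H, 10 of the 22 were higher in TAM and 6 lower (72.7% called, against 56.3% of all genes).

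Around Lipg, a list of 39 further lipases, lipoprotein receptors, apolipoproteins and regulators had 25 genes in the table and 23 tested. Between BMDM_T and BMDM_H 3 rose and 1 fell (17.4%, against 4.82% of all genes), with a median log2 fold change of 0.00, and all 4 changes were small beside that of Lipg. Pnpla2, the triglyceride lipase of lipid droplets, rose to 231.5 ± 60.5 CPM in BMDM_T, against 114 ± 24.4 CPM in BMDM_H (SD, n = 4 each; 0.99 ± 0.21 SE, edgeR adjusted p = 0.00785). Pla2g7, the secreted phospholipase that degrades platelet-activating factor, rose to 273 ± 53.2 CPM, against 155 ± 19.2 CPM (SD, n = 4 each; 0.81 ± 0.17 SE, edgeR adjusted p = 0.00694). Both calls were lost without BMDM_H replicates 3 and 4 together (edgeR adjusted p = 0.113 and 0.0783). Furin, a protease that can cleave and so inactivate endothelial lipase, rose by 0.67 (edgeR adjusted p = 0.0445), and the lipoprotein receptor gene Lrp1 fell by 0.59 (edgeR adjusted p = 0.0449). These were lost in 8 and 10 of 18 alternatives, and the list had 2 calls without BMDM_T replicate 1 and likewise without BMDM_H replicate 1, 2 or 4. The nearest relatives of Lipg, Lpl and Lipc, were not analysed here.

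In TAM against BMDM_T, 11 of these 23 genes rose and 6 fell (73.9% called, against 58.9% of all genes). Apoe, the apolipoprotein secreted by macrophages, had 35280 ± 3402 CPM in TAM (SD, n = 3) and 1795 ± 122 CPM in BMDM_T (SD, n = 4), a log2 fold change of 4.30 ± 0.19 (edgeR adjusted p = 1.84e-13). Pltp, the phospholipid transfer protein gene, rose by 3.14 ± 0.35 (edgeR adjusted p = 1.59e-07). Lrp1, which was lower in BMDM_T than in BMDM_H, rose by 2.21 ± 0.17 in TAM (edgeR adjusted p = 8.91e-10). Mgll, the monoacylglycerol lipase gene, fell as well, its 3 counts in TAM and 46 in BMDM_T giving a ratio of 28.3 (9.1 to 142). Against BMDM_H, 11 of the 23 were higher in TAM and 5 lower (69.6% called, against 56.3% of all genes).

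**Figure D3:**
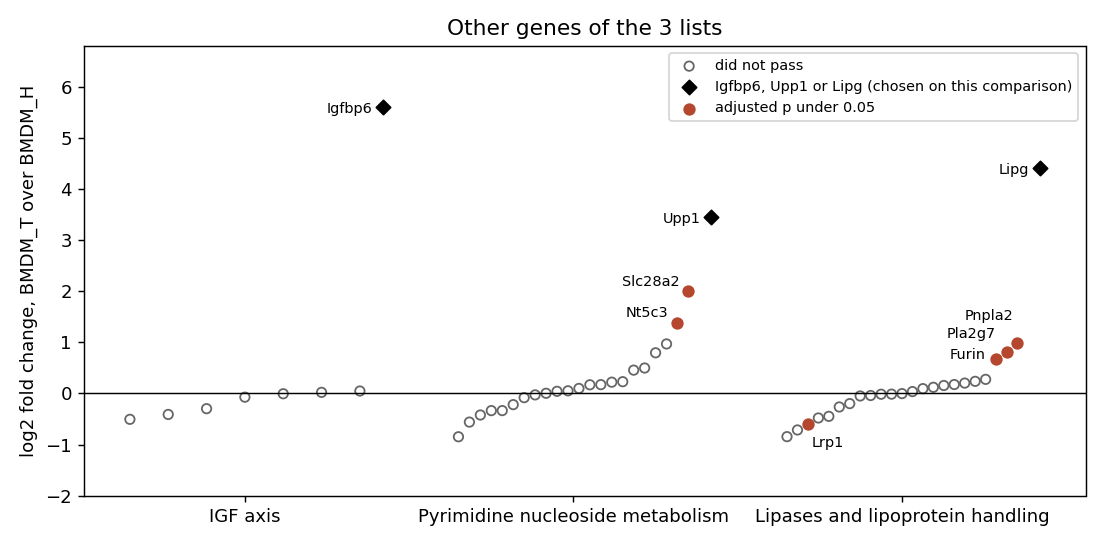
Log2 fold change of BMDM_T over BMDM_H for each tested gene of the 3 lists, in order of size within a list, with Igfbp6, Upp1 and Lipg as diamonds. Of the listed genes 0 of 7, 2 of 22 and 4 of 23 passed, and Slc28a2 at 2.00 is the largest change among them.

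In mm10, the 3 protein-coding genes lie on separate chromosomes: Igfbp6 on chromosome 15 (102144362 to 102149511, plus strand, 4 exons), Upp1 on chromosome 11 (9118103 to 9136170, plus strand, 9 exons) and Lipg on chromosome 18 (74939322 to 74961263, minus strand, 10 exons). In the annotation, 0 other genes overlap any of them. Genes near them on their chromosomes were compared between the marrow groups, where 4.82% of all tested genes were called. This comparison was added with the data in view. Within 500 kb of Igfbp6, 17 protein-coding genes were tested and had a median log2 fold change of -0.06, with 1 higher and 1 lower in BMDM_T. Near Upp1 there were 2 tested neighbors and near Lipg 5, and 0 of these passed with edgeR or with DESeq2 (1 near Upp1 and 0 near Lipg at an unadjusted p under 0.05 in edgeR). The gene that rose was Soat2, a sterol O-acyltransferase that esterifies cholesterol, which starts 1015 bases beyond the end of Igfbp6 on the same strand. Soat2 had 6.67, 4.24 and 4.14 CPM in TAM, 11.8, 22.7, 10.4 and 12.6 CPM in BMDM_T, and 1.59, 0.804, 3.72 and 0 CPM in BMDM_H. The 3 groups did not overlap, with BMDM_T highest, but the lowest TAM library was only 1.11 times the highest BMDM_H library. TAM over BMDM_H rested on 36 and 5 counts. Like Igfbp6 and Lipg, Soat2 passed the filter on low counts only through BMDM_T, and it was added with its values in view. Its fold changes are therefore a description without a p-value. Soat2 was higher in BMDM_T than in BMDM_H by 3.24 ± 0.57 SE on the log2 scale. The counts were low, with 61 in BMDM_T and 5 in BMDM_H, a ratio of 10.2 (4.14 to 32.5). Rarg, a retinoic acid receptor gene 85.4 kb away, was lower in BMDM_T by 1.32 ± 0.30 SE on the log2 scale. It too was added with its values in view, so this is a description without a p-value.

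**Figure D4:**
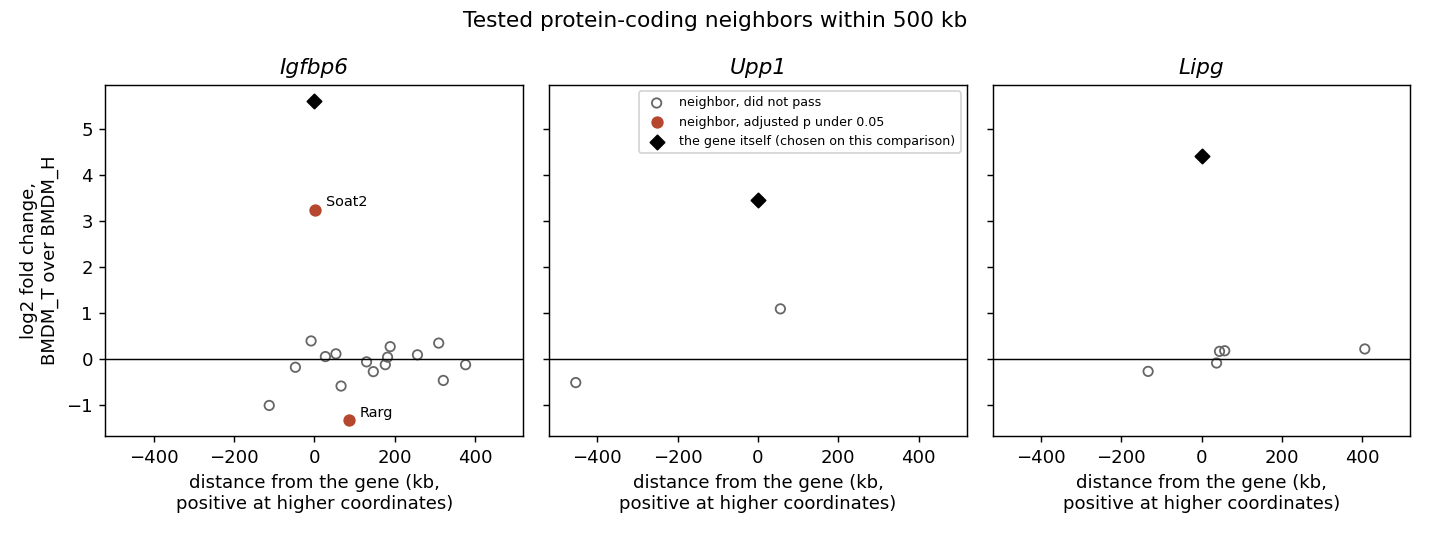
Log2 fold change of BMDM_T over BMDM_H for tested protein-coding genes within 500 kb of Igfbp6, Upp1 and Lipg, by distance from each gene (diamond). Soat2 at 3.24 and Rarg at -1.32 are the genes that passed, both near Igfbp6. Soat2 entered the fit through BMDM_T alone.

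The genes most like each one were taken by Pearson's r of log2 CPM over the 11 libraries, which share 3 groups and large differences between TAM and marrow, so r is a description. For Igfbp6 they were the semaphorin gene Sema6b (r = 0.93), the co-chaperone gene Uxt (0.93), the interferon-inducible membrane gene Ifitm1 (0.93), the NF-kappaB regulator Bcl3 (0.93) and the synaptotagmin gene Syt11 (0.92). Ifitm1 had the same order as Igfbp6, with means of 258.9 CPM in TAM, 1001 CPM in BMDM_T and 53.97 CPM in BMDM_H. For Upp1 they were the mitochondrial import gene Timm10b (0.98), the interleukin-8 receptor gene Cxcr1 (0.97), the mitochondrial outer membrane gene Tspo (0.97), the Toll-like receptor adaptor Myd88 (0.96) and the small GTPase gene Rab4b (0.96). Cxcr1 averaged 0.177 CPM in TAM, 25.8 CPM in BMDM_T and 1.25 CPM in BMDM_H. For Lipg they were the stefin A gene Stfa3 (0.97), the ubiquitin-conjugating enzyme gene Ube2h (0.96), the transporter gene Mfsd10 (0.95), Tspo (0.95) and the gamma-glutamyltransferase gene Ggt1 (0.95). A high r did not mean a large fold change: Timm10b was 1.54-fold and Mfsd10 1.38-fold higher in BMDM_T than in BMDM_H, against 17.8-fold for Ggt1. Syt11, Cxcr1 and Ggt1 passed the filter on low counts only through BMDM_T, which favors a higher value there.

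Among themselves, Upp1 and Lipg had r = 0.94, Igfbp6 and Upp1 0.90, and Igfbp6 and Lipg 0.85. The choice of genes high in the same BMDM_T libraries favors such values. Spearman's rho for these pairs was 0.66, 0.61 and 0.60 in the same order. From the side of Lipg, Upp1 ranked 7 and Igfbp6 66 among the tested genes, predicted genes left out. The lists of like genes depended on the TAM libraries and the scale. Over the 8 marrow libraries alone 0, 0 and 2 of the 5 genes were shared for Igfbp6, Upp1 and Lipg, and with Spearman's rho 1, 0 and 1.

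**Figure D5:**
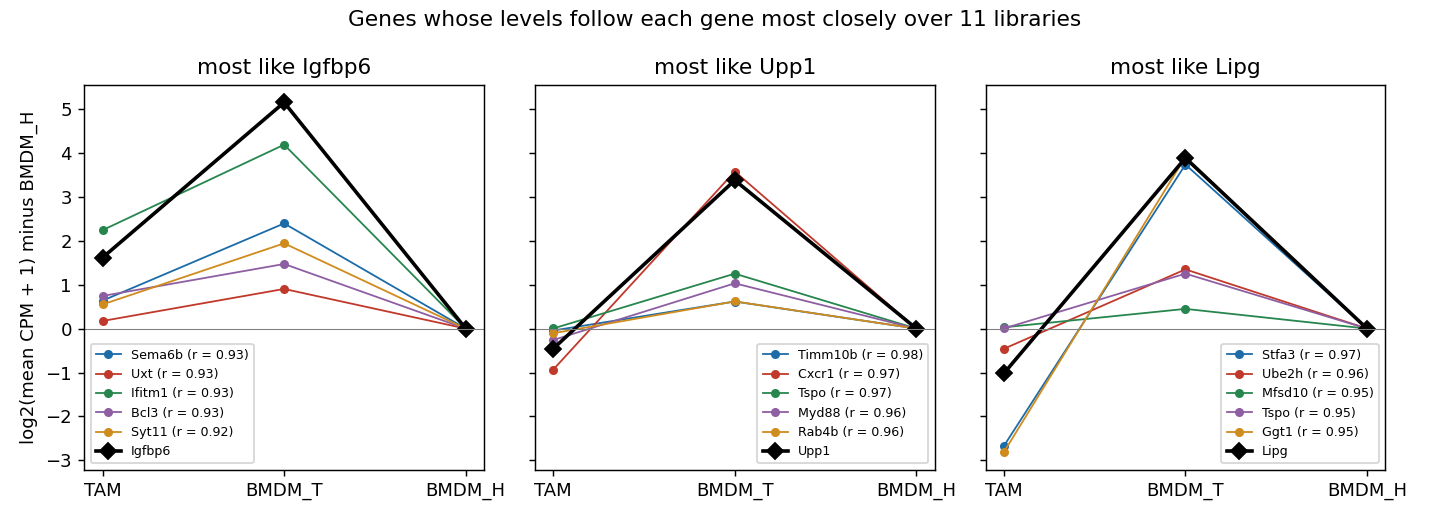
Log2 of mean CPM plus 1, less that of BMDM_H, for each gene and the 5 genes most like it in TAM, BMDM_T and BMDM_H, with lines joining the groups as a guide. All peak in BMDM_T, which the way the genes were taken favors. The means of Igfbp6 and its like genes lie above BMDM_H in TAM as well. For the like genes that difference ran from 1.09-fold for Uxt to 4.53-fold for Ifitm1. The choice by r over these same libraries favors it, so it is given without a test.

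Since IGFBP6 and endothelial lipase are also made by stromal and endothelial cells, markers of other cell types were read in the same libraries. Of 10 endothelial markers 5 were in the table, and they summed to 65.2 to 96.1 CPM in TAM, 29.8 to 46.2 CPM in BMDM_T and 18.2 to 34.6 CPM in BMDM_H. Pecam1, which myeloid cells also express, gave 451 of the 562 counts in TAM, 98 of 146 in BMDM_T and 47 of 98 in BMDM_H. It did not pass between BMDM_T and BMDM_H (log2 fold change 0.83 ± 0.33, edgeR adjusted p = 0.173). The other 4 markers had few counts and did not share one order. Kdr had 57 counts over TAM, 4 over BMDM_T and 2 over BMDM_H, and Vwf had 36, 5 and 8 in the same groups. Egfl7 had 8 counts over TAM, 25 over BMDM_T and 26 over BMDM_H, and Tie1 had 10, 14 and 15. Of 10 fibroblast and stromal markers 6 were in the table, summing to 19.9 to 41.9 CPM in TAM, 9.24 to 22.6 CPM in BMDM_T and 9.30 to 54.9 CPM in BMDM_H. Over TAM, BMDM_T and BMDM_H, the collagen genes had 48, 17 and 34 counts for Col1a1, 29, 5 and 28 for Col1a2 and 10, 1 and 0 for Col3a1. Sparc had 82, 18 and 21 counts, Pdgfrb 21, 5 and 8, and the chemokine gene Cxcl12 5, 18 and 22. Epithelial markers, 7 of 8 in the table, summed to 75.0 to 116 CPM in TAM, 20.5 to 41.6 CPM in BMDM_T and 32.6 to 65.1 CPM in BMDM_H. Of the stromal and epithelial markers 3 each could be tested between BMDM_T and BMDM_H, and 0 passed with edgeR or with DESeq2 (1 of each list at an unadjusted p under 0.05 in edgeR).

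Markers of the myeloid cells themselves also differed between BMDM_T and BMDM_H, where 2.82% of all genes were called higher and 2.0% lower. Of the 10 neutrophil and precursor genes 4 rose in BMDM_T and 0 fell, namely the granule genes Mpo (log2 fold change 1.79 ± 0.19), Elane (1.59 ± 0.18) and Prtn3 (2.06 ± 0.18) and the chemokine receptor gene Cxcr2 (1.48 ± 0.16). Of 6 monocyte genes 4 fell, among them Ccr2 (115 CPM in BMDM_T, 247 in BMDM_H), and of 8 macrophage genes 4 fell. All 6 tested markers of red cell precursors were lower as well, and their sum was 6.31 to 21.9 CPM in BMDM_T and 54.9 to 271 CPM in BMDM_H. Of these, Klf1, Slc4a1, Alas2 and Car1 passed the filter on low counts only through BMDM_H. That favors a lower value in BMDM_T, so the red cell values are a description without a test. Among B cell markers Vpreb3 and Igll1 rose, and among T and NK cell markers Nkg7 rose. The part of any of these marker levels in the levels of Igfbp6, Upp1 and Lipg was not tested.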

How the data were processed

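The authors deposited 1 table of unnormalized counts per gene with 24421 rows, of which 10207 carry a gene symbol. Libraries covered the 3′ ends of mRNA and carried barcodes and molecular identifiers (UMI), per the labels' protocols. The submitters' processing notes name bcl2fastq, STAR 2.4.2a, HTSeq and mm10. Collapsing of UMI, annotation, strand setting and any filter on genes: not given in the sources used here. Spreadsheet conversion had turned 17 symbols into dates. The 14214 rows without a symbol and the 6 libraries of batch 2, whose row order does not follow the symbols, were not used.

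The 11 libraries of batch 1 were fitted together in edgeR 4.0.16 (R 4.3.3) with filterByExpr, TMM factors, glmQLFit and glmQLFTest. Of 10207 genes 7518 were tested, with calls at a Benjamini-Hochberg adjusted p under 0.05. Genes that passed the low-count filter only through BMDM_T include Igfbp6, Lipg, Soat2, Syt11, Cxcr1 and Ggt1. Klf1, Slc4a1, Alas2 and Car1 passed it only through BMDM_H. Since each comparison holds libraries on which the 3 genes were picked, their fold changes come from this fit with no p-value, in place of the planned tests against TAM. CPM use the TMM factors and the library totals over the 7518 tested genes, and SE were taken as log2 fold change over √F. Scripts were tested on simulated data. Within groups, each pair of libraries differed beyond sampling noise, at a chi-square of 2.67 to 14.6 per degree of freedom.

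The genes, the gene lists, the markers and the tests were chosen with earlier results of these data known. Named genes were the 3 genes, the 5 most like each (Pearson's r, prior count 2, without predicted genes), list genes called in BMDM_T against BMDM_H (up to 6 by smallest p) and up to 4 more called in TAM against BMDM_T, with the other binding proteins and extracellular lipases. Not every one of these is described. Soat2 and Rarg were added after their values were seen. Promoter sequences are from RefSeq (1 window matched Igfbp6 and 3 matched Upp1), and gene coordinates from GENCODE. Alternatives were other size factors, library totals, no filter, DESeq2 1.42.0, the groups of a comparison alone, a replicate block and leaving out libraries.

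What the replicate numbers share is not stated, and the main fit does not use them. Deviations from the group means of BMDM_T and BMDM_H libraries with the same number had correlations of 0.22, 0.24, 0.13 and 0.13. Libraries with unlike numbers were not compared, so pairing was not tested. Between TAM and BMDM_T they were 0.02, -0.03 and 0.08.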

Additional observations from a re-analysis of the deposited data

Results flagged for a closer look

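In 3 of 70 groups of 4 libraries examined, 1 library stood apart from the others. Chance flags about 1 in 20 groups. Pla2g7 had 126 CPM in BMDM_H replicate 3, against 163 to 167 CPM in the others. Rab4b had 259 CPM in BMDM_H replicate 1, against 208 to 215 CPM in the others. Red cell precursor markers summed to 21.9 CPM in BMDM_T replicate 2, against 6.31 to 8.08 CPM in the others, and this library was also the lowest of its group for Igfbp6 and Lipg. No value of Igfbp6, Upp1 or Lipg stood apart in this way.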

How the results depend on the processing

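Of 160 fold changes of Igfbp6, Upp1 and Lipg under alternative settings, all 160 kept their direction. The choice of the genes favored that direction in BMDM_T over BMDM_H and TAM over BMDM_T, where no libraries overlapped. For these comparisons the count is therefore no sign of robustness. In BMDM_T over BMDM_H 1 moved by more than the spread between replicates, that of Igfbp6 without BMDM_H replicate 1 (log2 6.22). With 1 library left out, BMDM_T over BMDM_H ranged on the log2 scale from 5.13 to 6.22 for Igfbp6, 3.24 to 3.63 for Upp1 and 3.95 to 4.75 for Lipg. TAM over BMDM_T ranged from -4.01 to -3.38, -4.22 to -3.69 and -6.56 to -5.33 in the same order, and TAM over BMDM_H from 1.40 to 2.50, -0.77 to -0.27 and -2.14 to -0.92. Calls of BMDM_T against BMDM_H ranged from 238 (without BMDM_H replicate 2) to 409, and numbered 179 without BMDM_H replicates 3 and 4 together, a fit with fewer samples. The list counts ranged from 0 to 0 (insulin-like growth factor axis), 1 to 3 (pyrimidine nucleosides) and 2 to 4 (lipases), and without BMDM_H replicates 3 and 4 the lipase list had 0 calls and the pyrimidine list 1. With the replicate block, BMDM_T against BMDM_H had 468 calls in place of 362 and a log2 fold change of 5.67 for Igfbp6, 3.49 for Upp1 and 4.31 for Lipg. The block changed the call of none of the named results except Rarg in TAM against BMDM_T, which was not called with it. A fit on TAM and BMDM_H alone gave no value for Igfbp6, Lipg and Soat2, whose counts there were too low for the filter. Depth limits the BMDM_H values of Igfbp6 and Lipg (10 and 9 counts) and the TAM value of Lipg (6 counts).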
